A study of Ovis aries with 95 samples.

Results

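The probes described here were those transiently high at 120 and 130 d of gestation in the cerebral cortex of the fetal sheep. They were chosen from the authors' normalized log2 table of 11138 probes. For each probe the cortex group means were taken, and the score was the mean of the 120 and 130 d groups minus the higher of the 80 d and newborn groups. After 25 probes described as major histocompatibility complex (MHC) genes were left out, the 200 probes with the highest scores were kept. One of the 25 would otherwise have been among the first 200. Because 120 and 130 d belong to the last part of ovine gestation, the probes are named here by these ages and not as a mid-gestation set.

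RNA from 4 brain regions (cortex, brainstem, hippocampus and hypothalamus) of fetuses and lambs was measured on 95 one-colour ovine oligonucleotide arrays, with 1 sample labeled with Cy3 on each array. The 6 ages were 80, 100, 120, 130 and 145 d of gestation and 1 day after birth, here called newborn. The animals carried no treatment or engineered allele. Each of the 24 groups held 4 arrays, except the hippocampus at 100 d with 3, and each group included 1 set of twins that the labels do not mark, so p-values measure the spread between these samples. By the methods the 4 regions were taken from the same 4 animals at each age, and the labels do not say which arrays of different regions belong to 1 animal.

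The second part of gestation is when the cortex of the sheep, a species born with a well developed brain, folds, receives its last neurons and gains glia, vessels and the first myelin. Astrocytes take over water, potassium and glutamate handling in this period, endothelial cells acquire the transporters of the blood-brain barrier, and cortical interneurons begin to make their neuropeptides. A tissue level that passes through a maximum can follow from more RNA per cell or from more cells of a type, and in bulk tissue fewer cells of a type and less RNA per cell cannot be told apart.

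Most of the 200 probes were expressed sequence tags without a gene name. A gene symbol was found for 32 probes of 25 genes, which is 16% against 9.9% of all scored probes, and 7 probes were described as unknown. The sequences of 8 probes are shown here because the results below turn on them, the KRT25 and HBB pairs as probes of 1 name that can be compared, CN821983 and FE023901 as the probes that passed both contrasts in brainstem and hypothalamus, and EE794951 and EE772802 as those that ran opposite to the cortex in hypothalamus. Each line gives the first 30 bases of a 60-base probe, as listed in the deposited scanner files, 5′ to 3′.
KRT25 probe 1: ccctacaggaaatgttgtcagttcttttta
KRT25 probe 2: gtctgggcaatcattagcattatcaatagt
HBB probe 1: gcatctggcctctgcttaatatagacactt
HBB probe 2: atcttgacgacctcaagggcacctttgctc
CN821983: aacctgtgatgtaattatggtgtgtcatat
FE023901: ctttcaaaatacaaatcttgtgcatcactt
EE794951: ccgagagaaaaaatttgcagtgatcaatga
EE772802: tgagaaatgaatgaaaggacccacgaatga

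The probes of a pair did not always read different stretches. Over their 60 bases the KRT25 probes shared a run of no more than 6 bases and the HBB probes of no more than 7, so each pair gave 2 separate readings. The NPY probes shared a run of 57 bases, and those of GLUT-1 and CFL1 shared 59, as did GLUD1 probes 1 and 2. Those pairs are near-repeats of 1 measurement. Of the 200 probes, 10 shared at least 20 bases with another one. The median GC content was 43.3% for the 200 probes and 43.3% for all scored probes, with quartiles of 38.3 and 45% in both. Their mean level over the cortex arrays was higher, with a median of 9.98 against 9 on the log2 scale.

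The values below are log2 levels, that is, background-corrected spot intensities after quantile normalization over all arrays. They compare 1 probe between arrays, never 1 probe with another. A difference is called when its Benjamini-Hochberg adjusted p in limma, over all probes tested in the region, is under 0.05. Depth on an array means signal over background, and 73.9 to 83.9% of probes were well above background on the cortex arrays, against 59.5 to 85.1% in hippocampus. Correlations between arrays of 1 group went down to 0.812 in hippocampus and no lower than 0.9798 in cortex. Areas of an array that were dim against the other arrays of the group were found on 0 of 24 cortex arrays, 1 of 24 brainstem arrays, 10 of 23 hippocampus arrays and 17 of 24 hypothalamus arrays. Brainstem newborn replicate 4 had the largest dim area, with 18.1% of its probes and 36 of the 200 probes.

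The scores ran from 0.34 to 1.441 on the log2 scale, with a median of 0.463. All scored probes had a median of -0.18, and 18.2% of them were above 0. At the edge of the choice, EE777872 (rank 199) and GLUD1 probe 3 (rank 200) had 0.34 and GRIN1 probe 1 and EE822412, the next in order, had 0.339, so that nothing separates the last probes kept from the first ones left out. Another 9 probes carried the gene names of 6 genes of the set, among them CD1B, which has a product name but no symbol. Of these probes 8 scored above 0, and the median was 0.217. The exception was another GJB2 probe at -0.51, while further GJB2 probes scored 0.206, 0.217 and 0.225. On the values computed from the scanner files, 199 of the 200 probes again had a positive score.

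In the cortex the typical course was a climb already under way at 100 d, a broad top at 120 and 130 d and a partial descent by 145 d. These values describe the choice itself and carry no test. The median difference between the 120 and 130 d mean and 80 d was 0.69 (quartiles 0.47 and 1.07), and that between the 120 and 130 d mean and the newborn was 0.54 (quartiles 0.42 and 0.74). The group at 100 d lay a median of 0.45 above 80 d, and the 145 d group a median of 0.33 above the newborn. Of the 200 probes, 156 had a 100 d mean above both ends of the course and 175 had a 145 d mean above both. The highest group mean fell at 120 d for 78 probes, at 130 d for 99, at 145 d for 14 and at 100 d for 9. The newborn mean stayed above the 80 d mean for 132 probes and below it for 68. All 8 arrays of 120 and 130 d lay above all 8 arrays of 80 d and newborn for 23 of the 200 probes, against 0.216% of all probes. Both contrasts of the choice would pass in limma for 121 of the 200 probes against 1.29% of all, from which nothing is read. On 190 of the 200 probes every cortex array was well above background.

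The only ages the choice did not use in cortex were 100 and 145 d, and between them the set as a whole hardly moved. The median difference of 145 d minus 100 d was 0.07 over the 200 probes. The level rose in 35 probes (17.5%) against 14.7% of all probes tested, and fell in 16 (8%) against 16%. Among the named probes that rose were GJB2 and AQP4 of glia, GLUT-1 and EDN1 of vessels, COL2A1 and AREG. CD93, another gene of endothelium, fell, as did HSD11B1 and HBB probe 2. The calls of AQP4 and CD93 were lost without single arrays, as given below. Without 100 d replicate 1 the calls in both directions came to 33 in place of 51.

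**Figure D1:**
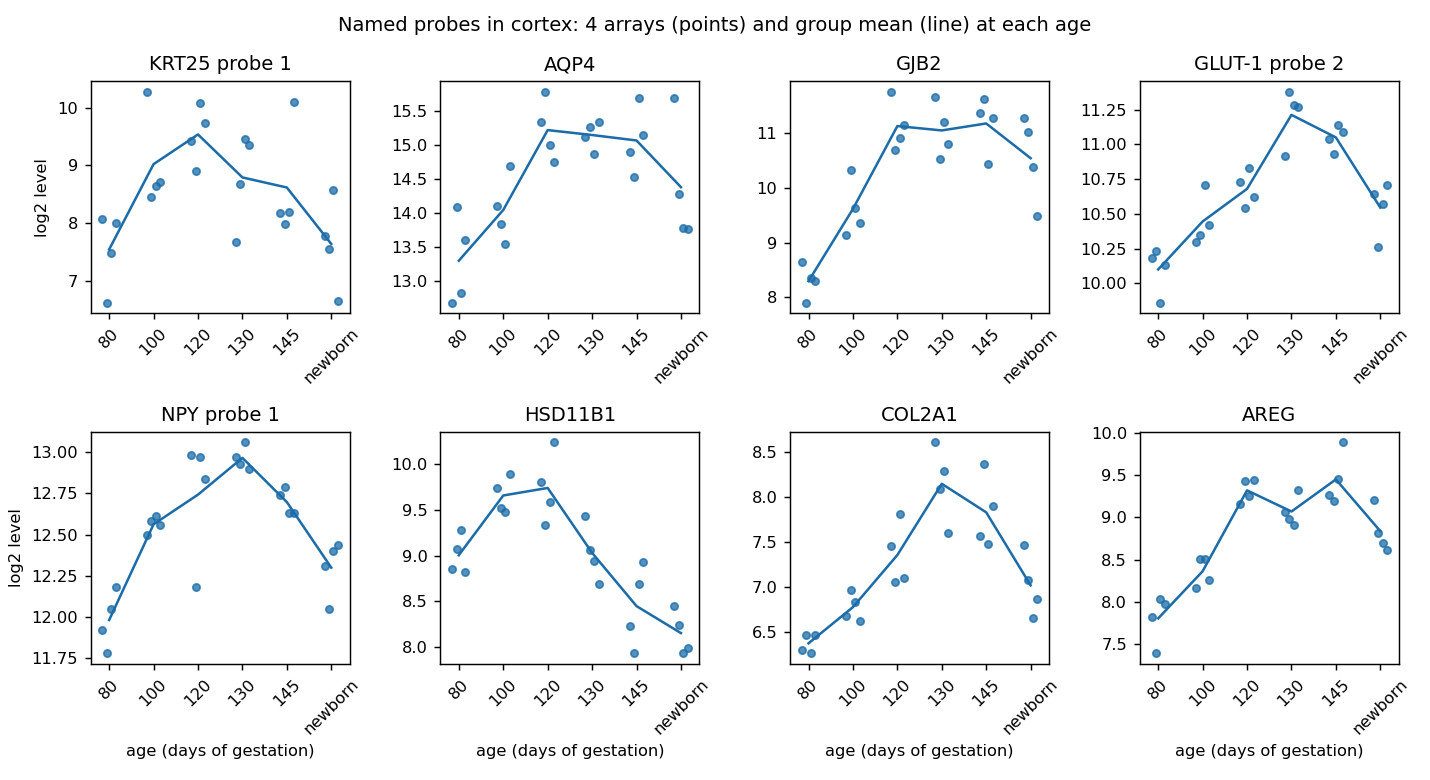
Log2 level (vertical axes) of 8 named probes in cortex against age (horizontal axes, days of gestation and newborn); points are the 4 arrays of a group and lines join the group means. KRT25, AQP4, GJB2, GLUT-1, NPY, COL2A1 and AREG are low at 80 d and higher at 120 and 130 d, while HSD11B1 starts near 9.01, is highest at 120 d with 9.74 and ends at 8.15 in the newborn.

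Genes of the vessel wall and of transport into the brain formed 1 group, put together after the values were seen. SLC2A1, listed in the files as GLUT-1, carries glucose across the blood-brain barrier. GLUT-1 probe 2 read 10.18, 10.23, 9.86 and 10.13 in the cortex at 80 d, 10.73, 10.54, 10.83 and 10.62 at 120 d, 10.92, 11.38, 11.28 and 11.27 at 130 d, and 10.64, 10.26, 10.57 and 10.71 in the newborn. Every 130 d array lay above every newborn array, and the 120 d arrays overlapped those of the newborn. The level rose by 0.61 between 100 and 145 d (SE 0.12, adjusted p = 0.000361 in limma). In the brainstem, where it read 10.76 to 11 at 80 d and 11.26 to 11.73 at 120 and 130 d, the rise was 0.71 (SE 0.14, adjusted p = 0.000528). The difference from the newborn brainstem was 0.50 (SE 0.14, adjusted p = 0.0193) and was no longer called without newborn replicate 1 (0.31, adjusted p = 0.0732). In the hypothalamus probe 2 rose by 2.07 (SE 0.55, adjusted p = 0.0164) over 80 d, where the arrays spread from 6.75 to 10.64. This call ended without 80 d replicate 1 (1.81, adjusted p = 0.0745) or 80 d replicate 4 (1.30, adjusted p = 0.0778). It also ended when the GLUT-1 probes were averaged (1.60, adjusted p = 0.104). GLUT-1 probe 1, the near-repeat, had hypothalamus means of 9.07 at 80 d (SD 1.72), 10.34 at 120 d and 10.78 at 130 d.

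EDN1 encodes endothelin, a vasoconstrictor peptide made by endothelium. It read 7.59, 7.38, 7.22 and 7.6 in the cortex at 80 d, 7.72, 7.79, 7.83 and 7.8 at 120 d, 8.1, 8.53, 7.92 and 8.28 at 130 d, and 8.39, 8.42, 8.24 and 8.66 at 145 d. The newborn arrays were back at 7.62, 7.33, 7.42 and 8.03, and 3 of the 4 lay below every array of 120 d. EDN1 rose by 0.89 between 100 and 145 d (SE 0.15, adjusted p = 9.73e-05). PECAM1, an adhesion molecule between endothelial cells, read 9.52 to 10.33 at 120 and 130 d against 9.54 to 9.72 at 80 d and 9.31 to 9.86 in the newborn, so its groups overlapped. CD93, a glycoprotein of endothelial and myeloid cells, stood out at 130 d with 8.8, 8.76, 8.58 and 8.71, above every array of the other ages in cortex, of which the highest read 8.43. From 100 to 145 d CD93 fell by 0.45 in cortex (SE 0.15, adjusted p = 0.0246), a call lost without 100 d replicate 1 or 145 d replicate 3 (adjusted p up to 0.0736) and with scaling to the 75th percentile (-0.55, adjusted p = 0.164). PECAM1 had means of 9.82 at 100 d and 9.5 at 145 d, and this difference did not pass (adjusted p = 0.13). MYLK, the kinase of the smooth muscle contractile light chain, read 8.54 to 9.73 at 80 d, 9.52 to 10.6 at 120 and 130 d and 8.78 to 9.72 in the newborn. In the brainstem MYLK rose by 1.38 from 80 d (SE 0.24, adjusted p = 0.000207) but was 0.55 lower than in the newborn, a difference that did not pass.

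A list of 10 endothelial genes with 17 probes held 3 of these genes (GLUT-1, PECAM1 and EDN1). Its median in cortex was 0.20 for the 120 and 130 d mean over 80 d and 0.19 over the newborn, against 0.69 and 0.54 for the 200 probes. The values of the 200 probes follow from the choice. Over all probes tested in cortex the medians were -0.028 and 0.006, which also stand beside the cortex medians of the lists below. Between 100 and 145 d 6 of the 17 rose and 2 fell, against 14.7 and 16% of all probes tested.

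The astrocyte gene of the set was AQP4, the water channel of astrocyte endfeet. Its cortex arrays read 12.68, 14.08, 12.83 and 13.6 at 80 d, 15.34, 15.78, 15 and 14.74 at 120 d, 15.12, 15.26, 14.86 and 15.33 at 130 d, and 15.69, 14.28, 13.78 and 13.76 in the newborn. All arrays of 120 and 130 d lay above those of 80 d, and 3 of the 4 newborn arrays lay below them. The rise from 100 to 145 d was 1.02 (SE 0.38, adjusted p = 0.0446), and without any 1 of 12 arrays it was no longer called (adjusted p up to 0.142). With the slide as a block it was 0.955 (adjusted p = 0.0552), also not called. In the hypothalamus AQP4 was 3.25 higher at 120 and 130 d than in the newborn (SE 0.77, adjusted p = 0.0285), where newborn replicate 1 read 9.0, the others 14.23 and 14.26, and where newborn replicate 2, 80 d replicate 2 and 130 d replicate 1 were left out for outlier marks. Without newborn replicate 1 the difference was 1.503 (adjusted p = 0.0241). It was not called without 120 d replicate 2 (3.22, adjusted p = 0.0521) or 130 d replicate 2 (3.16, adjusted p = 0.0589).

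AQP4 did not share its course with the other astrocyte genes. The list of 5 astrocyte genes (AQP4, GFAP, EAAT2, MT3 and GJA1) had 9 probes, of which AQP4 alone was among the 200. Its median difference was 1.18 over 80 d but -0.55 against the newborn, since 8 of its probes were higher in the newborn than at 120 and 130 d. GFAP, the intermediate filament of astrocytes, had cortex means of 8.07, 8.78, 9.73, 10.33, 10.70 and 11.45 in order of age on 1 of its probes. All 9 probes rose between 100 and 145 d, against 14.7% of all probes tested.

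GJB2, a gap junction protein of glia and meninges, read 8.64, 7.9, 8.35 and 8.29 in cortex at 80 d. It then read 11.76, 10.69, 10.92 and 11.15 at 120 d, 11.67, 10.52, 11.21 and 10.8 at 130 d, 11.37, 11.63, 10.43 and 11.28 at 145 d, and 11.27, 11.03, 10.38 and 9.49 in the newborn. The arrays of 80 d stood apart from all later ones, and those of the newborn overlapped those of 120 and 130 d. The gene rose by 1.56 from 100 to 145 d in cortex (SE 0.35, adjusted p = 0.00163). It rose from 80 d in the hippocampus by 2.07 (SE 0.36, adjusted p = 0.0022) and in the hypothalamus by 1.92 (SE 0.21, adjusted p = 2.6e-06). In the brainstem it differed by 1.24 from the newborn (SE 0.33, adjusted p = 0.0172), by 0.68 without newborn replicate 4 (adjusted p = 0.0534), which read 7.89 against 9.92 to 10.39 for the others. These values are from the chosen probe. Another GJB2 probe, with a score of -0.51, had cortex means of 7.38, 8.62, 10.55, 10.7, 11.42 and 11.12 in order of age. GLUD1, the mitochondrial glutamate dehydrogenase, had 3 of the 200 probes. Its probe 1 read 11.01 to 12.03 at 80 d, 12.08 to 12.73 at 120 and 130 d and 11.9 to 12.12 in the newborn.

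Among genes of neuronal signalling, NPY encodes neuropeptide Y, made in the cortex by interneurons. NPY probe 1 read 11.92, 11.78, 12.05 and 12.18 at 80 d, 12.98, 12.18, 12.97 and 12.84 at 120 d, 12.97, 12.93, 13.06 and 12.9 at 130 d, and 12.31, 12.05, 12.4 and 12.44 in the newborn. Apart from 120 d replicate 2, the arrays of 120 and 130 d lay above both ends. In the brainstem the course was another one. There it read 11.25 to 11.83 at 80 d, 11.99 to 12.25 at 100 d, 10.23 to 11.42 at 120 and 130 d and 9.0 to 10.45 in the newborn. It was 1.04 higher at 120 and 130 d than in the newborn (SE 0.26, adjusted p = 0.0121) and fell by 1.70 from 100 to 145 d (SE 0.30, adjusted p = 0.000443). On newborn replicate 4, NPY probe 1 lay in the dim area of the array. For NPY probe 2, its near-repeat, the difference from the newborn brainstem was 0.59 and was not called (adjusted p = 0.0871 in limma).

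MGLUR3, a metabotropic glutamate receptor, was highest in cortex at 130 d, with 9.29, 9.46, 9.51 and 9.57, against 8.5 to 9.41 at 120 d, 8.5 to 9.16 at 80 d and 8.69 to 8.87 in the newborn. In the brainstem MGLUR3 fell by 0.87 from 80 d (SE 0.10, adjusted p = 2.57e-06), and every 80 d array (7.59 to 7.77) lay above every later one. At 145 d only 1 of the 4 brainstem arrays read MGLUR3 well above background. In the hypothalamus it fell by 0.76 from 80 d (SE 0.19, adjusted p = 0.00956), or by 0.54 without 80 d replicate 1 (adjusted p = 0.0655). GRIN1, the obligate subunit of NMDA receptors, read 8.31 to 8.8 at 120 and 130 d on its chosen probe, 7.97 to 8.45 at 80 d and 7.77 to 8.4 in the newborn, and its groups overlapped. The list of neuropeptides, 9 genes with 18 probes, held only NPY and had medians of 0.87 over 80 d and 0.05 over the newborn. The list of glutamatergic and GABA signalling, 3 genes with 5 probes, held only GRIN1 and had medians of 0.17 and 0.50. A list of neuronal markers had 0 named probes on the array.

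Genes of plasma, blood and cerebrospinal fluid varied in their spread within groups. TTR, the thyroxine carrier secreted by choroid plexus, spread over several log2 units at most ages. Its cortex arrays read 13.4, 9.26, 9.53 and 11.21 at 80 d, 11.18, 11.49, 15.89 and 9.27 at 120 d, 11.58, 14.64, 10.2 and 9.81 at 130 d, and 9.47, 10.09, 7.66 and 11.71 in the newborn. The high group means rested on 120 d replicate 3 and 130 d replicate 2, the groups overlapped throughout, and no TTR difference was called in any region. The list of choroid plexus and ependyma genes, 5 genes with 8 probes, held only TTR and had medians of 0.40 over 80 d and -0.01 over the newborn. APOA1, the main protein of high density lipoprotein, and SERPINF1, a secreted serpin, had no called difference either. APOA1 read 12.3 to 13.18 in cortex at 120 and 130 d against 10.82 to 12.73 at the ends.

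The 2 HBB probes, named for the beta chain of hemoglobin, shared their top in cortex but had different ends. HBB probe 1 read 8.76, 8.96, 8.68 and 8.95 in cortex at 80 d, 11.95, 14.58, 13.38 and 12.82 at 120 d, 12.66, 9.51, 13.67 and 12.15 at 130 d, and 11.95, 11.15, 12.45 and 12.12 in the newborn. HBB probe 2 read 14.44, 14.06, 13.87 and 13.9 at 80 d, 14.01, 15.56, 15.24 and 14.03 at 120 d, 13.9, 14.5, 14.62 and 14.53 at 130 d, 12.89, 11.18, 12.58 and 12.32 at 145 d, and 12.43, 11.99, 12.71 and 12.3 in the newborn. Probe 1 was thus lowest at 80 d, and its mean of 10.5 at 100 d lay between those of 80 and 120 d. Probe 2 was low at 145 d and in the newborn, with no overlap with the earlier ages. Sheep carry several closely related beta globin genes, and which of them each probe reads was not tested.

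In brainstem and hypothalamus the probes were split in the same way. Probe 1 rose from 80 d by 4.30 in the brainstem (SE 0.61, adjusted p = 1.83e-05) and by 4.05 in the hypothalamus (SE 0.67, adjusted p = 0.000335). Probe 2 was higher at 120 and 130 d than in the newborn by 2.19 in the brainstem (SE 0.34, adjusted p = 0.000304) and by 2.79 in the hypothalamus (SE 0.31, adjusted p = 2.03e-05). From 100 to 145 d probe 2 fell by 2.11 in cortex (SE 0.40, adjusted p = 0.000348), by 1.77 in brainstem (SE 0.40, adjusted p = 0.00333) and by 1.47 in hypothalamus (SE 0.35, adjusted p = 0.0138). The last of these was not called without 100 d replicate 3 (-1.33, adjusted p = 0.0505). In the hippocampus the split was not called. Probe 1 read 7.97 to 9.66 at 80 d and 8.61 to 13.41 at 120 and 130 d, a difference of 2.69 (SE 0.92, adjusted p = 0.123). Probe 2 had a mean of 12.64 there at 100 d, and its newborn arrays (11.23, 11.4, 12.62 and 15.22) overlapped those of 120 and 130 d (12.29 to 15.75). Averaging both probes gave an HBB value of 0.47 for the difference between 145 and 100 d in hypothalamus. AHSP, the chaperone of alpha globin, read 7.42, 7.36, 7.96, 7.35, 6.91 and 7.21 as cortex group means in order of age on 1 of its 2 probes. With EPOR, the erythropoietin receptor, these 3 erythroid genes had 5 probes and a mean level per cortex array of 8.75 to 9.09 at 80 d, 8.98 to 10.86 at 120 and 130 d and 8.94 to 9.3 in the newborn. The part of blood left in the tissue in these differences was not tested.

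**Figure D2:**
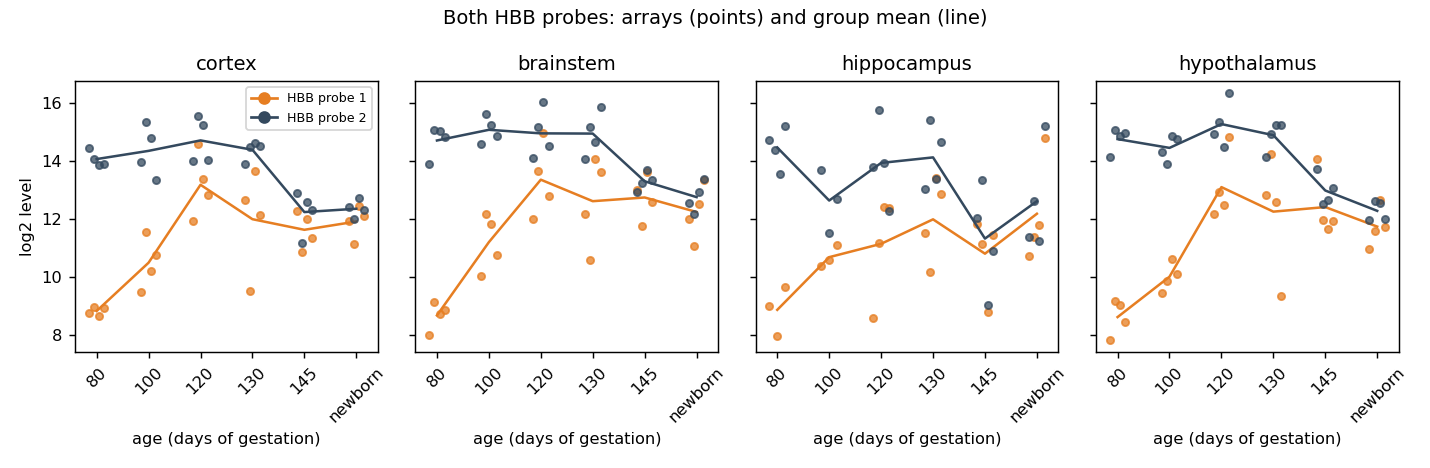
Log2 level (vertical axis) of the 2 HBB probes in each region against age (horizontal axes, days of gestation and newborn); points are arrays and lines join group means. Probe 1 is near 8.84 in cortex at 80 d and higher at every later age, and probe 2 drops from 14.38 at 130 d to 12.24 at 145 d in cortex.

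Genes of matrix and growth signalling came next. COL2A1, a fibrillar collagen, was not well above background on any of the 4 cortex arrays at 80 d (6.3, 6.47, 6.26 and 6.46). It read 7.46, 7.05, 7.81 and 7.1 at 120 d, 8.61, 8.09, 8.29 and 7.6 at 130 d, and 7.47, 7.08, 6.65 and 6.87 in the newborn. Every 130 d array lay above every newborn array, while those of 120 d overlapped them. From 100 to 145 d COL2A1 rose by 1.05 in cortex (SE 0.21, adjusted p = 0.000653) and fell by 1.53 in the brainstem (SE 0.30, adjusted p = 0.00109). In the hypothalamus it read 7.36 to 7.83 at 80 d, 8.64 to 9.53 at 120 and 130 d and 7.64 to 8.94 in the newborn, and passed both comparisons. The first difference was 1.499 (SE 0.23, adjusted p = 0.000119). The second was 0.87 (SE 0.23, adjusted p = 0.0384) and was not called without any 1 of 8 arrays (adjusted p up to 0.158) or with the slide as a block (0.84, adjusted p = 0.066). The list of fibroblast and meningeal genes, 8 genes with 13 probes, held only COL2A1 and had cortex medians of 0.22 and 0.16.

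AREG, a ligand of the epidermal growth factor receptor, read 7.82, 7.39, 8.04 and 7.97 in cortex at 80 d, 9.16, 9.43, 9.25 and 9.44 at 120 d, 9.07, 8.98, 8.91 and 9.32 at 130 d, and 9.21, 8.82, 8.7 and 8.62 in the newborn. The cortex arrays of 120 and 130 d were apart from 80 d and overlapped the newborn. In the brainstem the direction was turned, with 8.58 to 8.74 at 80 d and 7.33 to 8.03 at 120 and 130 d, a fall of 1.01 (SE 0.16, adjusted p = 5.2e-05). AREG rose between 100 and 145 d by 1.09 in cortex (SE 0.16, adjusted p = 2.09e-05) and fell by 0.71 in brainstem (SE 0.18, adjusted p = 0.00875). BMPR1B, a receptor of bone morphogenetic proteins, rose by 0.64 from 80 d in the brainstem (SE 0.17, adjusted p = 0.00629). MET, the receptor of hepatocyte growth factor, read 7.2 to 7.58 in cortex at 80 d and 8.1 to 10.66 at 120 and 130 d, where 120 d replicate 2 was the highest, and had no called difference in any region.

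Among genes of steroid and lipid metabolism, HSD11B1 encodes the enzyme that regenerates active glucocorticoid inside cells. Its cortex arrays read 8.85, 9.07, 9.28 and 8.82 at 80 d, 9.74, 9.52, 9.48 and 9.89 at 100 d, 9.8, 9.33, 9.59 and 10.24 at 120 d, 9.43, 9.06, 8.94 and 8.69 at 130 d, and 8.45, 8.24, 7.93 and 7.99 in the newborn. The arrays of 100 and 120 d lay above every array of 80 d, those of 130 d overlapped them, and every newborn array lay below every array of 80 to 130 d. In the 3 other regions the means of HSD11B1 at 120 and 130 d lay below that at 80 d. At 80, 120 and 130 d they were 10.39, 10.09 and 9.71 in brainstem and 10.91, 10.55 and 10.01 in hippocampus. In hypothalamus they were 11.13, 10.97 and 10.77. Against the newborn, HSD11B1 was higher at 120 and 130 d in all 3 of these regions. The difference was 1.94 in brainstem (SE 0.31, adjusted p = 0.000388), where every array of 120 and 130 d (9.66 to 10.27) lay above every newborn array (6.4 to 9.34). On brainstem newborn replicate 4 this probe lay in the dim area, and only 3 of the 4 newborn arrays there read it well above background. In hippocampus the difference was 1.47 (SE 0.28, adjusted p = 0.025), a call lost without any 1 of 6 arrays (adjusted p up to 0.115). Averaging it with another HSD11B1 probe on the array also ended the hippocampus call (1.20, adjusted p = 0.118). So did the replicate number as a block (adjusted p = 0.0535) and the trend and robust settings of eBayes (adjusted p = 0.0514). In hypothalamus the difference was 1.12 (SE 0.23, adjusted p = 0.0104), a call lost without newborn replicate 3 (1.00, adjusted p = 0.0509) or newborn replicate 4 (0.82, adjusted p = 0.0533). In cortex the gene fell by 1.21 between 100 and 145 d (SE 0.21, adjusted p = 0.000117).

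The list of steroid synthesis and nuclear receptors, 14 genes with 22 probes, held only HSD11B1 and had cortex medians of 0.12 and 0.07. HACD1, a dehydratase of very long chain fatty acid synthesis, read 10.79 to 11.56 in cortex at 120 and 130 d against 10.16 to 10.42 in the newborn, without overlap. In the brainstem it was 0.86 above the newborn (SE 0.22, adjusted p = 0.0137), or 0.47 without newborn replicate 4, which read 9.0. PTGS1, a cyclooxygenase of prostaglandin synthesis, was highest in cortex at 120 d (10.77, 11.1, 11.37 and 11.02) and read 10.07 to 10.58 at 130 d.

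KRT25, a keratin of the hair root sheath, had the highest score of all. KRT25 probe 1 read 8.07, 6.62, 7.48 and 8.01 in cortex at 80 d, 10.28, 8.45, 8.65 and 8.71 at 100 d, 9.42, 8.9, 10.09 and 9.74 at 120 d, 7.68, 8.68, 9.46 and 9.35 at 130 d, 8.18, 7.99, 8.2 and 10.1 at 145 d, and 7.78, 7.55, 8.58 and 6.65 in the newborn. The arrays of 120 d were apart from both ends and those of 130 d overlapped both. Probe 2 was also highest at 120 d, with group means of 7.49, 8.61, 9.04, 8.44, 8.20 and 7.32. In the hippocampus both probes were highest at 80 d. Probe 2 read 8.62, 8.47, 8.14 and 9.13 there and 7.0 to 8.16 at 120 and 130 d, a fall of 1.11 (SE 0.25, adjusted p = 0.0153) that was not called without 80 d replicate 1 (-1.10, adjusted p = 0.0504) or 80 d replicate 4 (-0.93, adjusted p = 0.0936), nor with the slide as a block (-0.91, adjusted p = 0.06). In brainstem and hypothalamus all KRT25 readings lay between 5.92 and 7.15.

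Among the last named genes, CFL1 encodes cofilin, which severs actin filaments, and GNG11 a gamma subunit of G proteins. CFL1 probe 1 read 9.22 to 9.89 at 120 and 130 d in cortex against 8.99 to 9.41 at 80 d and 9.13 to 9.27 in the newborn. GNG11 read 11.4 to 12.31 at 120 and 130 d against 11.18 to 11.55 at 80 d and 10.84 to 12.25 in the newborn. A probe for CD1B, which presents lipid antigens to T cells, read 6.69 to 6.96 at 80 d and 6.56 to 10.01 at 120 and 130 d in cortex. Its cortex means were 8.24 at 120 d (SD 1.43), 8.24 at 130 d, 8.13 at 145 d and 7.77 in the newborn, where it read up to 8.0. At 120 d only 3 of the 4 cortex arrays read it well above background. Another probe of this gene name scored 0.143. On every array of the other regions the chosen probe read between 6.29 and 7.02.

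The remaining lists held none of the 200 probes. These were progenitors (2 genes with a named probe), cell cycle (5), oligodendrocytes (3), microglia (4), lymphocytes (5), muscle (3), pituitary (6), cytokines (17), interferon response (7), growth factors (24), lipid synthesis (8), energy metabolism (9), heat shock (5), ribosomal proteins (9) and matrix remodelling (10). The list of hypoxia response, 6 genes with 12 probes, held only GLUT-1. Of the oligodendrocyte probes all 3 rose from 100 to 145 d in cortex, against 14.7% of all probes tested. Of the 17 ribosomal probes 14 fell, against 16% of all.

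Outside the cortex the 200 probes as a set rose and fell less in hippocampus and hypothalamus, and in brainstem they fell without a rise. The choice rested on the cortex, so the comparison with it carries no test. The mean of all 200 probes on an array was 9.77 ± 0.12 (SD, n = 4) in cortex at 80 d, 10.59 ± 0.09 at 120 d, 10.64 ± 0.05 at 130 d and 9.98 ± 0.11 in the newborn. In the brainstem it was 10.55 ± 0.09 at 80 d, 10.52 ± 0.04 at 120 d, 10.45 ± 0.05 at 130 d and 9.89 ± 0.05 in the newborn, so that the descent was there and the climb was not. In the hippocampus it was 10.04 ± 0.07 at 80 d and 10.36 ± 0.18 at 130 d, with a spread of 0.31 among the newborn arrays. In the hypothalamus it stayed between 9.98 and 10.27 at all ages. Measured as in the choice, against the higher of the ends, the 120 and 130 d mean stood 0.636 higher in cortex, 0.295 in hippocampus and 0.155 in hypothalamus, and differed by -0.067 in brainstem.

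**Figure D3:**
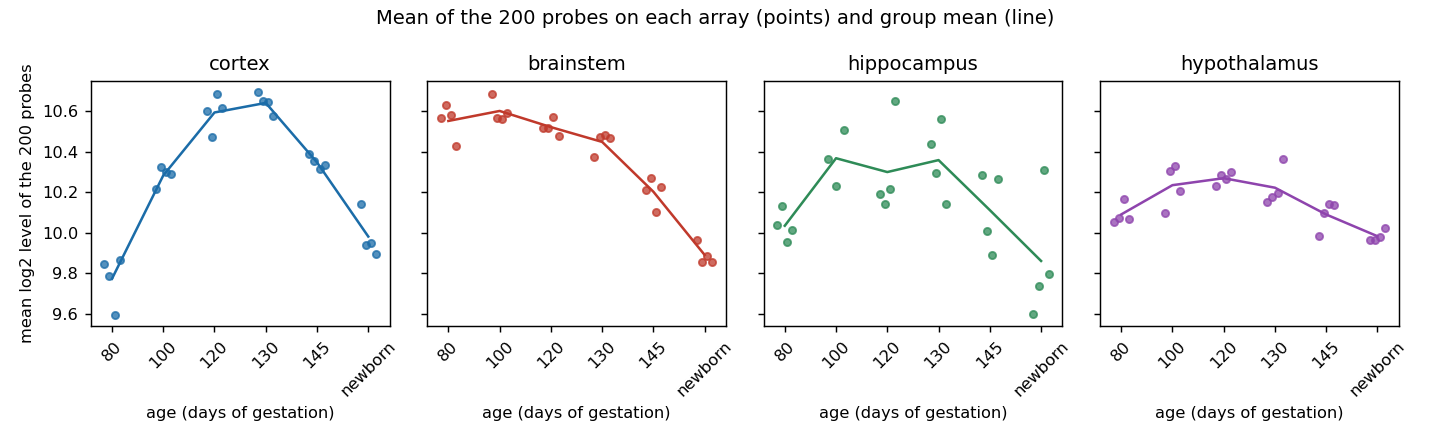
Mean log2 level of the 200 probes on each array (vertical axis) against age (horizontal axes, days of gestation and newborn) in each region; points are arrays and lines join group means. Cortex climbs from 9.77 at 80 d to 10.64 at 130 d, brainstem is level at first and ends at 9.89, and the hippocampus arrays spread most.

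The age of the highest group mean showed the same. In the brainstem 76 of the 200 probes (38.0%) were highest at 80 d and 47 (23.5%) at 100 d, against 30.5 and 10% of all probes tested. In the hippocampus 53 (26.5%) were highest at 100 d and 54 (27.0%) at 130 d, against 13.8 and 13.8%. In the hypothalamus 49 (24.5%) were highest at 120 d against 8.7%. Newborn tops were few, with 4.0% in brainstem against 30.1%, 3.5% in hippocampus against 14.3%, and 8.5% in hypothalamus against 23.8%. At 100 d the region with the highest level was brainstem for 84 of the 200 probes, hippocampus for 46, cortex for 37 and hypothalamus for 33. At 145 d it was cortex for 64, brainstem for 50, hippocampus for 45 and hypothalamus for 41.

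**Figure D4:**
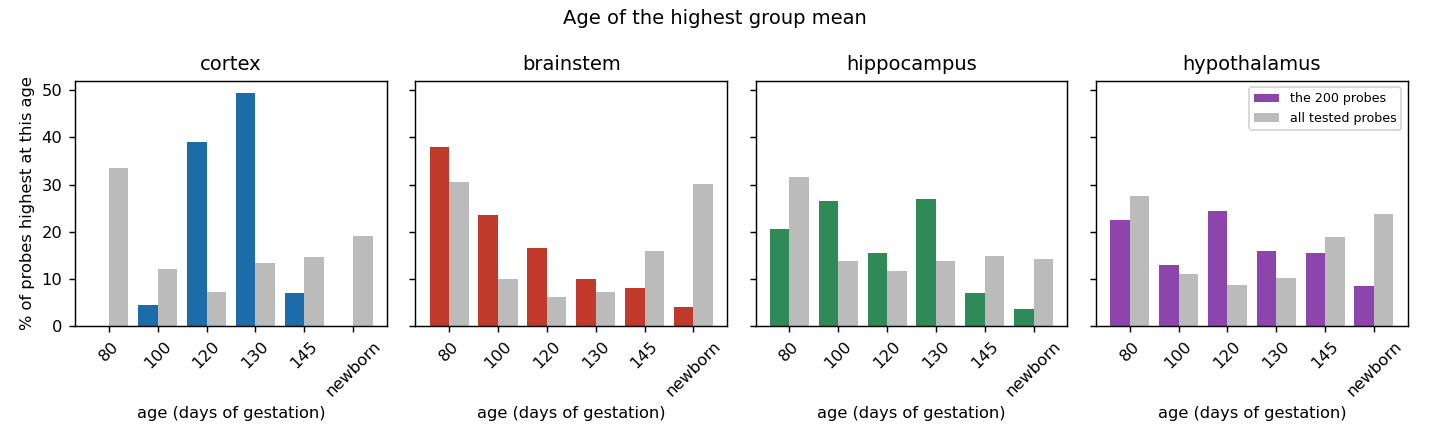
Percent of probes (vertical axis, bars from 0) whose highest group mean falls at each age (horizontal axes, days of gestation and newborn), for the 200 probes in colour and for all tested probes in grey, by region. In brainstem the coloured bars are tallest at 80 and 100 d (38.0 and 23.5%), and in hypothalamus at 120 d (24.5%).

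Whether the transient of the cortex was also found elsewhere was asked with 2 contrasts per region, the 120 and 130 d mean against 80 d and against the newborn, both of which had to be called. By the methods these regions came from the animals whose cortex chose the probes. The counts here and those of the single contrasts are therefore not independent of the choice. What the shared animals add to them was not tested. In the brainstem 14 of 199 tested probes (7.04%) were higher than at both ends, against 0.571% of all probes tested. In the hypothalamus 7 of 198 (3.54%) were, against 0.104%. Without 1 array the hypothalamus count was 3 (newborn replicate 3) to 9, and it also moved by over 1.5 times without 80 d replicate 2, 120 d replicate 4, 130 d replicate 3 or newborn replicate 4. In the hippocampus 0 of 199 were called by limma, as were 0% of all probes, and 18 of the 199 had both unadjusted p-values under 0.05, against 0.348% of all. Without hippocampus newborn replicate 3 the count was 3. At the unadjusted threshold the counts were 22 in brainstem (1.43% of all) and 32 in hypothalamus (0.683% of all). In brainstem 17.7% of all tested probes had a positive score, in hippocampus 28.3% and in hypothalamus 20.8%, and among the 200 probes these were 75, 117 and 101. A positive score in all 3 other regions was found for 46 probes and in none of them for 43.

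The single contrasts differed more between regions. Against the newborn, the level at 120 and 130 d was higher for 90 probes in brainstem (6.25% of all tested), 26 in hypothalamus (1.31%) and 2 in hippocampus (0.136%), and lower for 3, 3 and 0 (8.54, 1.67 and 0.0984%). The medians were 0.57, 0.29 and 0.49. Against 80 d, it was higher for 30 probes in brainstem (11% of all), 24 in hypothalamus (4.8%) and 7 in hippocampus (1.76%), and lower for 46, 19 and 3 (15.5, 7.07 and 2.01%). The medians were -0.12, 0.13 and 0.29. From 100 to 145 d, 67 of the probes fell in brainstem (9.65% of all) and 7 rose (7.65%), with a median of -0.41. In hypothalamus 15 fell (4.17%) and 5 rose (2.92%), and in hippocampus 2 fell (0.318%) and 0 rose (0.485%).

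Arrays of each region lay on several slides that held more than 1 age, so the medians were also taken within slides. Against the newborn they ran from 0.408 to 0.639 in brainstem, 0.375 to 0.866 in hippocampus and 0.096 to 0.298 in hypothalamus. Against 80 d they ran from -0.215 to -0.032, 0.187 to 0.299 and 0.095 to 0.17. From 100 to 145 d they ran from 0.029 to 0.127 in cortex and from -0.51 to -0.357 in brainstem.

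All arrays of 120 and 130 d lay above all arrays of 80 d and newborn for 4 of 199 probes in brainstem (CN821983, FE031991, EE842771 and EE831337), against 0.233% of all. For the hypothalamus the count was 4 of 196 (CN821983, EE784248, EE752974 and EE798283), against 0.0671%. For the hippocampus it was 0 of 199, against 0.00758%. These names were chosen after their values were seen, as were those that follow.

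CN821983 and FE023901, both unnamed, were the 2 probes higher than at both ends in 2 of the other regions. Another 17 were so in 1 region, and 0 in all 3. CN821983 read 12.44, 12.27, 12.41 and 12.5 in cortex at 80 d, 12.84, 12.75, 13.37 and 12.88 at 120 d, 13.4, 13.79, 13.45 and 13.26 at 130 d, and 11.5, 11.63, 12.31 and 12.57 in the newborn. In brainstem it read 12.56 to 13.04 at 80 d, 13.18 to 13.63 at 120 and 130 d and 11.45 to 12.58 in the newborn, without overlap. There it was higher by 0.59 over 80 d (SE 0.15, adjusted p = 0.00612) and by 1.56 over the newborn (SE 0.15, adjusted p = 3.37e-06). In hypothalamus it was higher by 0.63 (SE 0.18, adjusted p = 0.0246) and 1.67 (SE 0.18, adjusted p = 1.98e-05), the first not called without 80 d replicate 2 (0.54, adjusted p = 0.0948). In hippocampus it was 1.44 above the newborn, a call lost without any 1 of 11 arrays (adjusted p up to 0.27). The trend and robust settings of eBayes also ended the hippocampus call (adjusted p = 0.0638).

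FE023901 kept its higher level at 145 d. It read 7.68, 7.4, 7.28 and 7.7 in cortex at 80 d, 8.57, 8.38, 8.04 and 8.57 at 120 d, 9.59, 10.04, 9.09 and 9.31 at 130 d, 9.74, 9.69, 9.38 and 9.22 at 145 d, and 8.79, 8.63, 8.38 and 7.93 in the newborn. The arrays of 130 and 145 d lay above all others in cortex. In brainstem it was higher at 120 and 130 d than at 80 d by 1.12 (SE 0.21, adjusted p = 0.000349) and than in the newborn by 0.84 (SE 0.21, adjusted p = 0.0118). In hypothalamus the differences were 1.59 (SE 0.24, adjusted p = 0.000153) and 1.00 (SE 0.24, adjusted p = 0.0283). The last was not called without newborn replicate 1 (0.83, adjusted p = 0.0978), newborn replicate 3 (1.05, adjusted p = 0.0534) or newborn replicate 4 (0.90, adjusted p = 0.113).

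For 2 probes the hypothalamus ran opposite to the cortex, being lower at 120 and 130 d than at both ends, against 0.215% of all probes there. In the other regions 0 probes did so (0.323% of all in brainstem and 0% in hippocampus, where 0 of all probes passed in either direction). The first, EE794951, read 13.37, 13.48, 12.59 and 13.11 in cortex at 80 d, 14.82, 14.99, 15.3 and 14.53 at 120 d, 14.27, 13.87, 14.28 and 13.7 at 130 d, and 12.91, 12.4, 12.54 and 12.88 in the newborn. In hypothalamus it read 14.58, 15, 14.46 and 14.46 at 80 d, 12.21, 11.84, 12.27 and 12.04 at 120 d, 12.28, 12.05, 12.13 and 13.66 at 130 d, and 14.07, 13.26, 14.07 and 14.59 in the newborn. Cortex was separated upward on every array, and hypothalamus downward on all but 130 d replicate 4, which lay above the lowest newborn array. In hypothalamus the level fell by 2.32 from 80 d (SE 0.34, adjusted p = 9.68e-05), and it differed by -1.69 from the newborn (SE 0.34, adjusted p = 0.00739).

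EE772802, the second, read 14.34 to 15.04 in cortex at 80 d, 15.42 to 16.32 at 120 and 130 d and 14.74 to 15.27 in the newborn. In hypothalamus it read 15.3 to 15.84 at 80 d, 13.15 to 13.93 at 120 and 130 d apart from 130 d replicate 4 at 15.82, and 15.35 to 15.82 in the newborn. The differences were -1.71 from 80 d (SE 0.38, adjusted p = 0.00417) and -1.71 from the newborn (SE 0.38, adjusted p = 0.0138). The second was not called without newborn replicate 4 (-1.61, adjusted p = 0.0565). In the hippocampus both probes were uneven within groups, and EE794951 ran from 13.53 to 17.13 at 120 d.

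**Figure D5:**
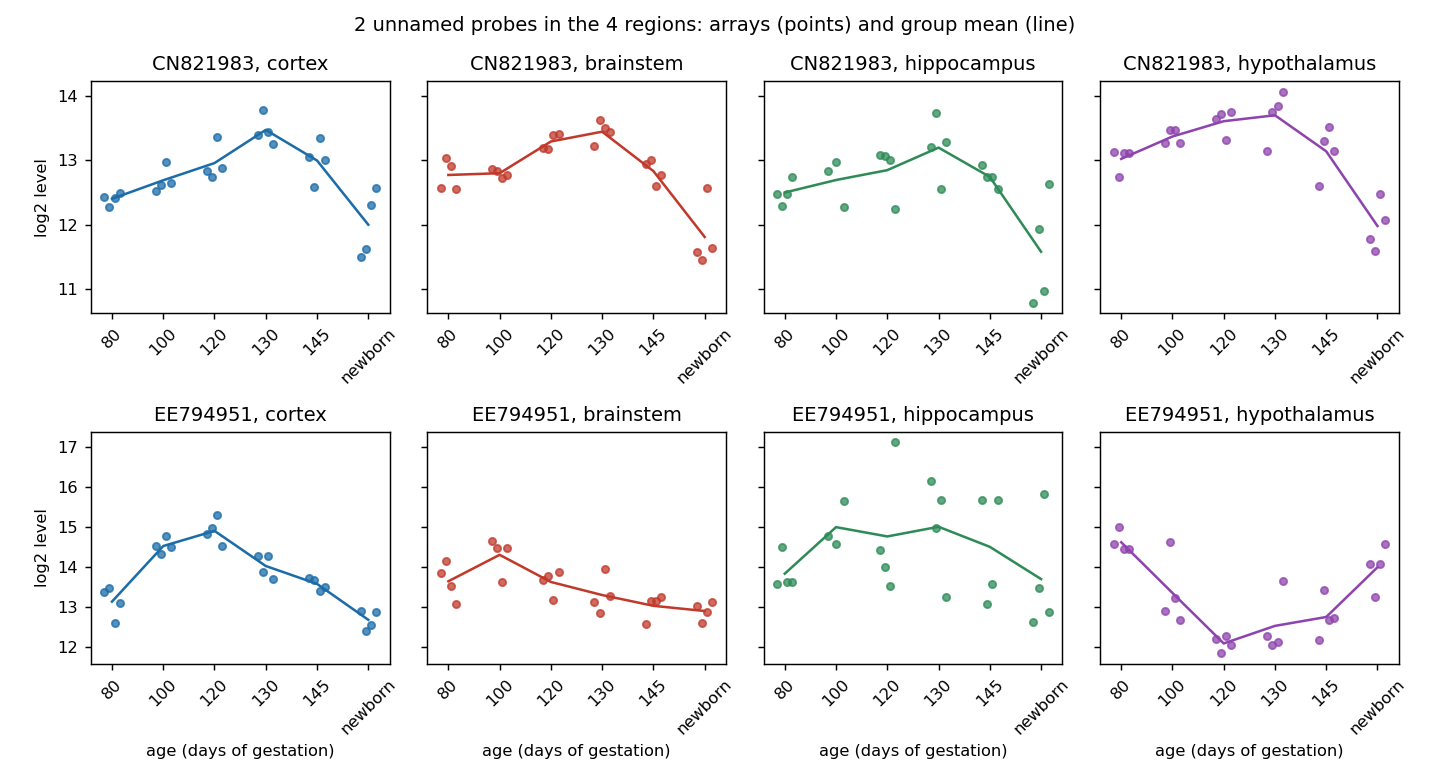
Log2 level (vertical axes) of 2 unnamed probes in the 4 regions against age (horizontal axes, days of gestation and newborn); points are arrays and lines join group means. CN821983 (upper panels) has a lower mean in the newborn than at 120 and 130 d in each region, least firmly in hippocampus. EE794951 (lower panels) is high in cortex at 120 d (mean 14.91) but between 11.84 and 12.27 in hypothalamus.

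Whether the transient differed between brainstem, hippocampus and hypothalamus was tested in 1 fit over these regions, and 4 of 197 probes (2.03%) passed, against 0.233% of all. These were EE794951 (adjusted p = 0.00581), AREG (adjusted p = 0.0218), EE822174 (adjusted p = 0.0392) and EE847139 (adjusted p = 0.0488). EE822174 was 1.07 lower at 120 and 130 d than at 80 d in hypothalamus (SE 0.22, adjusted p = 0.00277), and its differences in hippocampus were 0.79 over 80 d and 0.92 over the newborn, neither called. EE847139 fell by 0.54 from 80 d in brainstem (SE 0.17, adjusted p = 0.0236). This fit took the arrays of the 3 regions as independent, although the regions share animals. With arrays of 1 age and 1 replicate number taken as 1 animal, which the labels do not state, 2 of the 197 passed against 0.171% of all, EE794951 (adjusted p = 0.025) and EE822174 (adjusted p = 0.0465), and AREG (adjusted p = 0.0772) and EE847139 (adjusted p = 0.111) did not. The count also depended on single arrays, from 1 without hippocampus 130 d replicate 3 to 10 without hippocampus newborn replicate 3.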

How the data were processed

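RNA of the samples was hybridized in 1 colour (Cy3) and scanned by the authors. The deposited scanner files, written by Feature Extraction 10.1.1.1 per the file headers, hold the mean intensity and the local background intensity of 15208 gene spots, and the authors' processed signal. Normalized log2 values deposited by the authors for the whole series were made with limma background correction and quantile normalization, per the methods. They supplied the scores. Each of the 95 columns matched its own array best.

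Here mean intensity was background-corrected by normexp (offset 50) and quantile normalized over 95 arrays (limma 3.58.1, R 4.3.3). Control spots and spots marked as outliers were left out, and 1338 probes lacked every spot on at least 1 array. A probe was tested in a region if on at least 4 arrays it was 1.1 times as bright as the 95th percentile of 77 negative controls. This correction narrows the changes of dim probes. Per region the 6 ages were fitted together (lmFit, eBayes), and a second fit over brainstem, hippocampus and hypothalamus tested whether the transient, here the 120 and 130 d mean minus the mean of both ends, differed. The regions share animals, which this fit did not model. Adjustment was over all probes tested.

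The members and the gene lists were chosen with earlier results of these data known. The rule names every member with a symbol up to 30 by score, the 3 highest with a product name only (CD1B, TC15944 and TC15033), ranks 200 and 201, and named members called in 2 other regions. GRIN1 probe 2 and unnamed probes were named after their values were seen. Symbols came from the files or from RefSeq gene names (assembly ARS-UI_Ramb_v3.0). No set was tested. Tests were checked on simulated data. The alternatives were the authors' table, an offset of 16, scaling to the 75th percentile, no filter, replicate and slide blocks, eBayes with trend and robust settings, averaged probes, a threshold of 0.01, left-out arrays and left-out dim areas.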

Additional observations from a re-analysis of the deposited data

Results flagged for a closer look

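Within the groups of 4 arrays, the mean of the 200 probes and each named probe in cortex were examined for 1 array far from the other 3. Of 234 groups 14 had such an array, and chance gives about 1 in 20. For the mean of the 200 probes these were brainstem 130 d replicate 1 (10.372), hippocampus 120 d replicate 4 (10.652) and hypothalamus 80 d replicate 3 (10.169).

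In cortex, KRT25 probe 1 was high at 100 d in replicate 1 (10.28) and at 145 d in replicate 4 (10.1), where KRT25 probe 2 was high too (9.52). GLUT-1 probe 1 was high at 100 d in replicate 3 (10.59) and low in newborn replicate 2 (10.17). PECAM1, another vessel gene, was also high at 100 d in replicate 3 (10.13). Newborn replicate 2 was low for GLUD1 probe 2 (12.07), and newborn replicate 1 was high for MET (8.91). At 130 d replicate 1 was low for HBB probe 2 (13.9) and NPY probe 2 (12.77). TC15944, whose description names only a protein of unknown role, read 6.06 at 145 d in replicate 4 against 9.63 to 9.9 on the other arrays of that group.

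The transient differed between brainstem, hippocampus and hypothalamus for EE794951 (adjusted p = 0.00581), AREG (adjusted p = 0.0218), EE822174 (adjusted p = 0.0392) and EE847139 (adjusted p = 0.0488) in limma. The regions share animals, which this fit did not model.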

How the results depend on the processing

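The named probes had 84 called differences, which kept direction and call in 2711 of 2933 comparisons with an alternative, lost the call in 221 and reversed in 1. The reversal was HBB probe 2 in hypothalamus, whose fall from 100 to 145 d became a difference of 0.465 when probes of 1 name were averaged, since the 2 HBB probes differ. Of the 84, 60 kept their call under all settings other than the stricter threshold and left-out arrays, and 47 of these also without each array in turn. Scaling to the 75th percentile ended, among others, the hypothalamus calls of CN821983 against 80 d, FE023901 against the newborn and HBB probe 2 between 100 and 145 d, and the authors' table ended that of AQP4 against the newborn.

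Scaling to the 75th percentile kept 109 of the 200 probes in the choice, gave 1 probe high in hippocampus and 0 region differences, and an excess of the 120 and 130 d mean over the mean of both ends of 0.912 in cortex, 0.345 in brainstem and 0.294 in hypothalamus. A threshold of 0.01 left 6 probes in brainstem, 1 in hypothalamus, 24 for 145 d against 100 d in cortex and 1 region difference, as fewer calls must pass. A slide block left 2 region differences. Other causes were not tested. Animals of different ages are different animals, and deviations of arrays with the same number in 2 ages correlated with a cortex median of 0.18 (-0.1 for different numbers), a hypothalamus median of 0.15 (-0.09) and medians of 0.04 (-0.02) and 0.01 (0.04) for brainstem and hippocampus, with single pairs from -0.57 to 0.87. Between regions of 1 age the median was 0.05 for the same number, from -0.33 to 0.55, and -0.05 for another. The numbers were therefore not taken as pairs. With the replicate number as a block, 14, 0 and 8 probes were high in brainstem, hippocampus and hypothalamus, 68 differed between 145 and 100 d in cortex against 51, and 5 differed between regions. With the replicate number within each age as a block over the regions, chosen after seeing the data, 2 differed between regions. Leaving out dim areas, an alternative chosen after seeing the data, gave 15, 0 and 7.

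Without 1 array the counts ran from 9 to 18 in brainstem (9 without 80 d replicate 4), 0 to 3 in hippocampus, 3 to 9 in hypothalamus, 33 to 57 for cortex 145 d against 100 d and 1 to 10 for region differences, where 22 arrays moved the count by over 1.5 times. The choice kept 168 to 186 of the 200 probes. The excess of the 120 and 130 d mean over the mean of both ends was 0.71 to 0.767 in cortex, 0.244 to 0.277 in brainstem, 0.323 to 0.456 in hippocampus and 0.185 to 0.222 in hypothalamus. In brainstem this excess comes from the newborn alone, since the 120 and 130 d mean was -0.067 from that of 80 d. Signal over background limits COL2A1 at 80 d in cortex, KRT25 outside cortex and hippocampus, and CD1B outside cortex.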
